A study of Mus musculus with 11 samples.

Results

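The comparison described here set splenic CD4+ dendritic cells (DC) of mice without intact Zbtb46 against the same cells of wild-type mice. It rests on 2 of the 11 arrays of the series, 1 per genotype, and all values are descriptive because there is no replicate. The WT array came from Zbtb46+/+ mice and the KO array from Zbtb46gfp/gfp mice, in which both copies of the gene carry an allele named for gfp, the green fluorescent protein reporter. All mice were on the C57Bl/6 background and were taken at steady state, and no source used here gives their age or the number of animals behind an array. The allele is carried by the whole animal, so cells other than DC lacked intact Zbtb46 as well. The other 9 arrays held bone marrow progenitors, 1 array each of WT, Het (Zbtb46 gfp/+) and KO mice at 3 stages that lead to red cells, the early Pre MegE, the later Pre CFU-E and the last, CFU-E. Of 19933 genes with a probe set of their own, 10554 lay at or above the array median on at least 1 of the 2 DC arrays and are called measured below. Of these, 9837 did so on both arrays, 332 on the WT array alone and 385 on the KO array alone.

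Zbtb46 encodes a zinc finger transcription factor with a BTB domain and is known as a mark of classical DC and their committed precursors. Splenic CD4+ DC are the CD11b+ branch of classical DC, which takes up particles and blood-borne material in the marginal zone and presents peptides on MHC class II to CD4+ T cells. Notch2 and lymphotoxin beta receptor signals and the factors Irf4 and Relb support this branch, whereas the CD8+ branch depends on Irf8 and Batf3. In the spleen these cells lie next to macrophages that clear red cells and carry many of the same surface proteins.

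Array values were intensities, and every difference below is the log2 intensity of the KO array minus that of the WT array. The array median was 7.61 (log2) for WT and 7.64 for KO DC. No detection call came with the values, so the median served as the floor, and a gene under it on 1 array has a fold that depends on unmeasured background. The upper quartile intensity was 641.43 in WT DC and 604.76 in KO DC, both under the 967.58 to 1009.3 of the progenitor arrays. Xist, the RNA of the inactive X chromosome, was 13.21 in WT and 13.28 in KO DC, and the Y-linked Uty was below the median on both (4.43 and 4.75), so both DC arrays had the pattern of female cells. The progenitor arrays did not share that pattern. WT progenitors held both Xist (11.52 to 12.31) and Uty (9.40 to 9.78), while Het and KO progenitors had Xist at 5.86 to 6.38.

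The sort gate was B220- CD11c+ MHCII+ CD8- CD172+ CD11b+ CD4+, and the genes of the gate were at like levels in both genotypes. Itgax (CD11c) was 12.27 in WT and 12.36 in KO, Itgam (CD11b) 11.64 and 11.53, and Sirpa (CD172) 13.12 and 13.11. Cd4 was 12.16 and 11.96, and H2-Aa, an MHC class II chain, was 13.82 and 13.87. Cd8a lay below the median on both arrays (7.13 and 7.35). The markers Esam (9.78 and 9.74) and Clec4a4 (10.45 and 10.49) of the CD4+ branch were present too, so the label CD4+ DC fits the markers on both arrays.

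Zbtb46 was read first, as the targeted gene. Its log2 intensity was 9.67 in WT DC and 8.02 in KO DC, a difference of -1.65 or 3.14-fold, and this was the largest difference in the lower direction among the measured genes. The KO value still lay above the array median. No source used here says where the probe set sits relative to the inserted gfp, so the remaining signal cannot be assigned to intact or altered transcript. Among progenitors, KO and WT differed by 0.19 in Pre MegE, by -0.44 in Pre CFU-E and by -1.37 in CFU-E. Of 41 measured BTB zinc finger genes, 24 lay above 0 and 17 below, with a median of 0.06. Zbtb46 was the one member of that family past 1.5-fold in either direction, and Zbtb10 (9.82 to 10.36, difference 0.55) came next in size.

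At least 2-fold differences were few. Of the 10554 measured genes, 12 were at least 2-fold higher in KO (0.114%) and 21 at least 2-fold lower (0.199%). At 1.5-fold, 80 were higher (0.758%) and 187 lower (1.77%). The median of all measured genes was -0.05, with 61.2% of them below 0 and 38.8% above, so a small shift below 0 is the background of every list in these values. That shift depends on the processing. The median of all genes was -0.002 after quantile normalization of the 2 DC arrays alone or of all 11 arrays, and 0.012 with no filter on low values. When the 2 DC arrays alone were quantile normalized, 15 genes were at least 2-fold higher and 17 lower, which turns the share of higher genes from 36.4% to 46.9%.

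The spread of the DC pair was wider than that of any progenitor pair. The SD of the difference across genes was 0.23 for the DC pair. It was 0.1068 to 0.1667 for the 9 pairs of genotypes within a progenitor stage. Those pairs held 0 genes at least 2-fold higher and at most 5 at least 2-fold lower (0.0488% of the genes measured in CFU-E of KO against WT). In progenitor pairs of Het or KO against WT, sex-linked signal differed along with genotype, unlike in the DC pair. Xist was among the lower genes there (difference -5.66 in CFU-E of KO against WT). All 33 genes past 2-fold in DC lay outside the range that the 9 progenitor pairs gave for the same gene, but so did 30.8% of all measured genes on the lower side and 16.8% on the higher side. Whether 2 DC arrays of 1 genotype would differ as much was not measured. Past 2-fold in DC, 3 of the 33 genes had the same direction at all 3 progenitor stages, and Zbtb46 was the only one past 2-fold at a stage as well. The share of all measured genes with the same direction is not given here, so no trait of the 33 is read from that count.

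**Figure D1:**
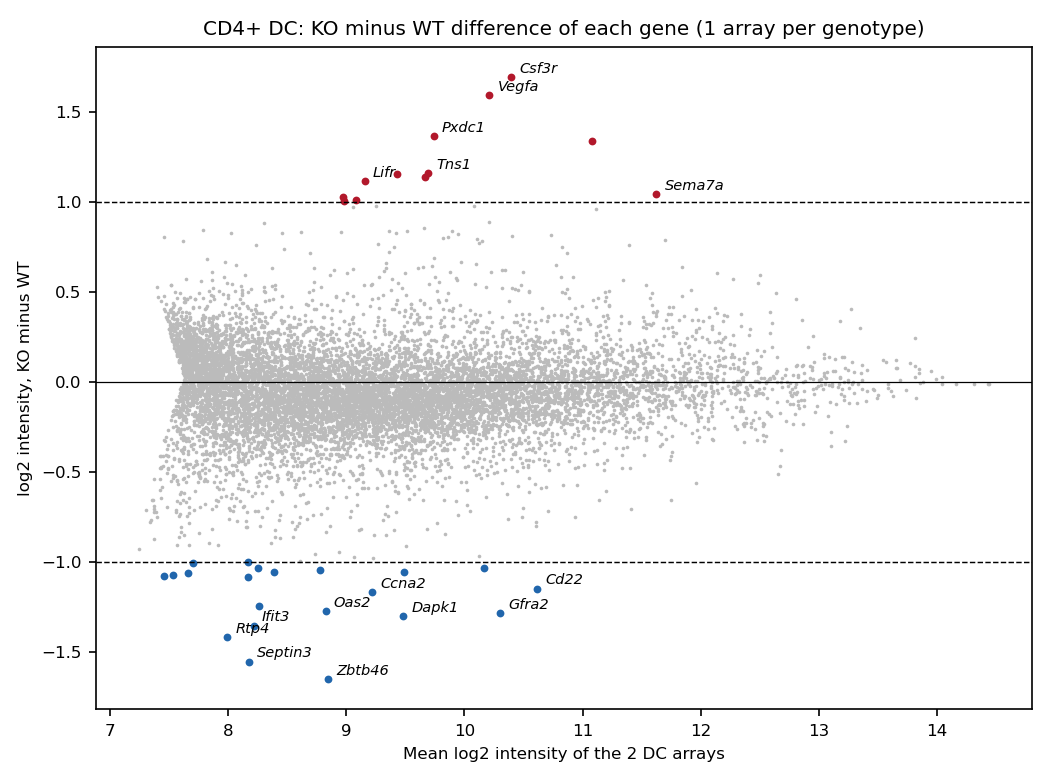
Each point is 1 of the 10554 measured genes, with the mean log2 intensity of the 2 DC arrays on the horizontal axis and the log2 difference, KO minus WT, on the vertical axis. Dashed lines mark 2-fold. The 12 genes past it above (red) reach 1.70 for Csf3r and the 21 below (blue) reach -1.65 for Zbtb46.

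The genes higher in KO were led by a receptor and a growth factor. Csf3r, the receptor for granulocyte colony-stimulating factor, was 9.55 in WT and 11.24 in KO, 3.24-fold higher. Vegfa, a growth factor for blood vessels, was 9.41 and 11.01, 3.02-fold higher. Lifr, the receptor subunit for leukaemia inhibitory factor, was 8.60 and 9.71, a difference of 1.12. Each of these genes was above the median on both arrays. On the 9 progenitor arrays Csf3r spanned 7.58 to 8.97, Vegfa 9.23 to 9.96 and Lifr 5.40 to 5.61, so each KO DC value lay above all progenitor values of its gene. The WT DC values of Csf3r and Lifr did so too, whereas that of Vegfa lay within the progenitor range.

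Pxdc1 was 9.06 in WT and 10.42 in KO (difference 1.37), and Cacna1e, a subunit of a voltage-gated calcium channel, 8.85 and 10.01 (1.16). Sema7a, a membrane-anchored semaphorin, was 11.10 and 12.15 (1.05). Nectin1, an adhesion molecule, was 9.59 and 10.58 (0.98). Vps37b, a subunit of the ESCRT-I sorting complex, was 9.10 and 10.24 (1.14), and Klf10, a Krüppel-like transcription factor, 8.48 and 9.48 (1.01). Tns1, which links integrins to actin, was 9.11 and 10.27 (1.16), but its 6 probe sets gave differences from 0.23 to 1.16, all above 0.

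The remaining genes among the 15 with the largest difference upward were Il12b, Hspb1, Ms4a1, Bag3 and Cd14. Il12b, the p40 chain of interleukins 12 and 23, was 8.45 in WT and 9.49 in KO. Ms4a1, which encodes the B cell protein CD20, was 8.57 and 9.55. Cd14, a co-receptor for bacterial lipopolysaccharide, was 9.76 and 10.65. The chaperone genes Hspb1 and Bag3 are described with their list below.

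Many genes lower in KO beside Zbtb46 belonged to the cell division or interferon lists described further on, and the others are given first. Septin3, a septin GTPase, was 8.95 in WT and 7.40 in KO, which is below the median. Dapk1, a death-associated protein kinase, was 10.13 and 8.83 (difference -1.30), and Gfra2, a co-receptor for neurturin, 10.94 and 9.66 (-1.28). Cd22, an inhibitory sialic acid-binding receptor best known on B cells, was 11.19 and 10.04 (-1.15). Xlr, an X-linked lymphocyte-regulated gene, was 8.07 and 7.0 (-1.07). In progenitors the KO minus WT differences of these 5 genes lay between -0.13 and 0.23.

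Mgl2 and Cd5l, both linked to macrophages or to lectin-bearing DC, were also among the lower genes. Mgl2, a galactose-binding lectin, was 8.71 in WT and 7.63 in KO, and Cd5l, a protein secreted by tissue macrophages, was 8.0 and 6.92. Both were below the array median in KO. In all, 8 of the 21 genes at least 2-fold lower were below the median in KO, whereas 0 of the 12 higher genes were below it in WT. The 3 genes past 2-fold that are olfactory receptor or small nucleolar genes were Snord118 (-1.25), Olfr920 (-1.0) and Snord14e (1.34).

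**Figure D2:**
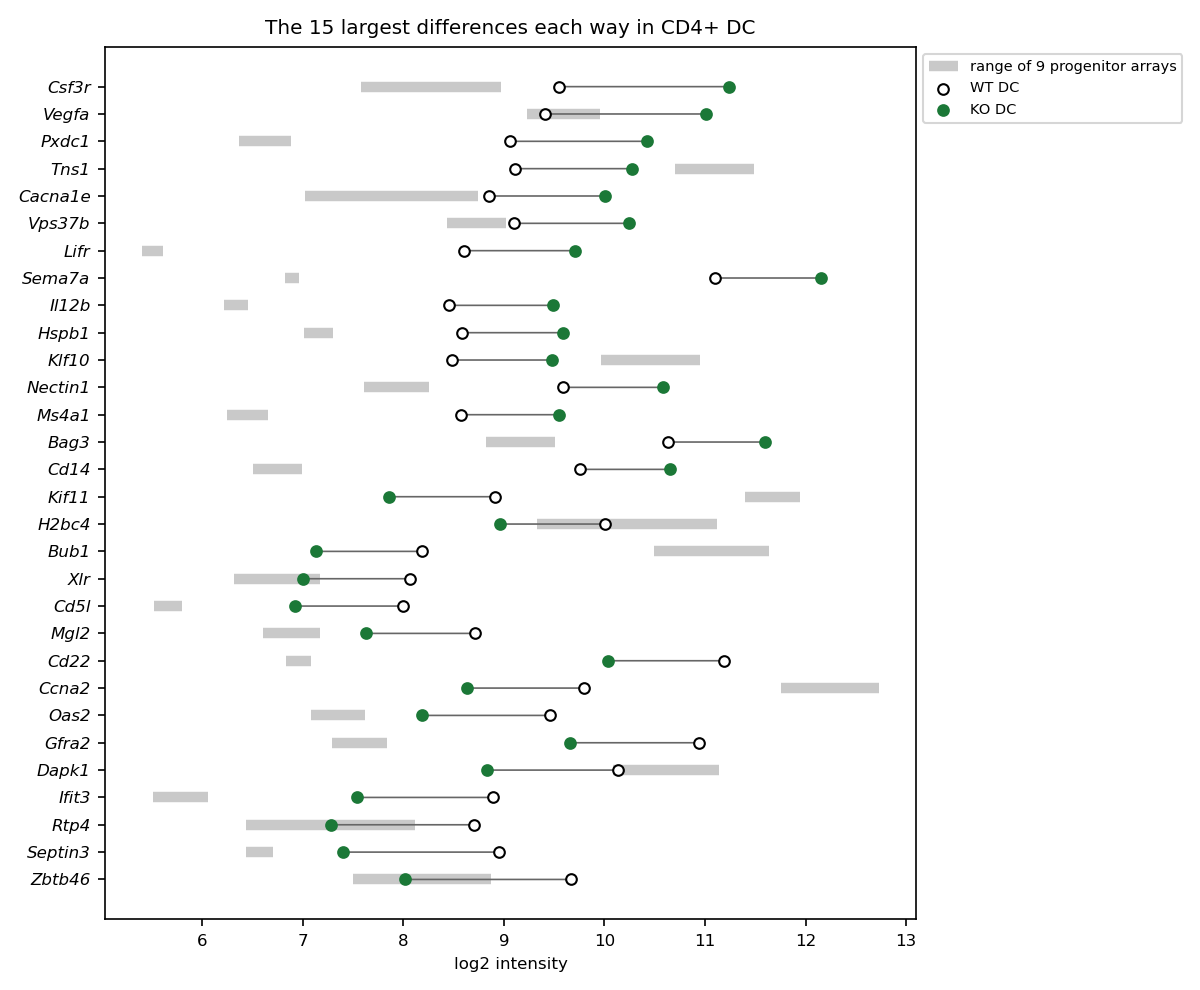
Log2 intensity (horizontal axis) of the 15 genes with the largest difference each way in CD4+ DC, in WT (open circles) and KO (filled circles), 1 array each, with the range of the 9 progenitor arrays as a grey bar. Lines join the 2 DC arrays, from Csf3r (9.55 to 11.24) at the top to Zbtb46 (9.67 to 8.02) at the bottom.

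All 24 measured mitosis genes were lower in KO, with a median difference of -0.70. Of these, 19 were at least 1.5-fold lower, against 1.77% of all measured genes, and 3 at least 2-fold. Ccna2, the cyclin of S and G2 phase, was 9.80 in WT and 8.63 in KO. Bub1, a spindle checkpoint kinase, was 8.19 and 7.13, and Kif11, the kinesin that separates spindle poles, 8.91 and 7.86. Mki67, the antigen used to stain cycling cells, was 10.32 and 9.58 (difference -0.74). Cenpa stood apart from the list at -0.01. Of the 24 genes, 17 were still at or above the median in KO, and the median over members above it on both arrays was -0.71. The erythroid list, described with the other cells, had a median of -0.74 by that stricter filter, over fewer genes.

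DNA replication genes and histone genes lay in the same direction. All 26 measured replication genes were lower in KO (median -0.52), 10 of them at least 1.5-fold, against 1.77% of all measured genes. Pole, the catalytic subunit of DNA polymerase epsilon, was 8.77 in WT and 7.73 in KO. Mcm6, part of the replicative helicase, was 9.24 and 8.41, and Rrm2, which makes deoxyribonucleotides, 8.81 and 7.99. Pcna (12.29 and 12.27), Tk1 and Cdt1 differed by less than 0.05. All 18 measured replication-dependent histone genes were lower too (median -0.45), among them H2bc4 (10.01 to 8.96), H2bc3 (11.76 to 11.06), H2ac4 (8.99 to 8.32) and H4c6 (11.47 to 10.81). The histone list was added after its members' values were seen, and near-identical histone genes may share probes.

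The same lists did not lie below 0 at the progenitor stages. The mitosis median, KO minus WT, was 0.03 in Pre MegE, 0.02 in Pre CFU-E and -0.02 in CFU-E. The summed intensity of the 25 mitosis genes with a probe set was 12600 in WT DC and 7840 in KO DC, far below the 51300 to 88000 of the progenitor arrays. In these bulk samples, fewer cells of a kind and less RNA per cell cannot be told apart. Of the 187 genes at least 1.5-fold lower in KO DC, 35 belonged to the mitosis, replication or histone lists, and 0 of the 80 higher genes did. These lists held 68 of the 10554 measured genes, and the histone list was added after its values were seen.

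Type I interferon response genes were lower in KO DC as well. Of 31 measured, 29 lay below 0 and 2 above, with a median of -0.44, beside 61.2% of all measured genes below 0. Of the 31, 7 were at least 1.5-fold lower, against 1.77% of all measured genes. Rtp4, an interferon-induced chaperone of membrane receptors, was 8.70 in WT and 7.28 in KO. Ifit3, of the antiviral IFIT family, was 8.89 and 7.54, and Oas2, which makes 2'-5' oligoadenylate, 9.46 and 8.19. Ifi44l (9.11 to 8.11), Ifit2 (8.02 to 7.18), Phf11d (8.67 to 7.87) and Ifi27l2a (8.39 to 7.63) were the others past 1.5-fold. Rtp4, Ifit3, Ifit2 and Ifi27l2a were below the array median in KO and so were measured through the WT array alone. Their folds thus depend on unmeasured background. The factors that carry the signal were lower by less: Irf7 differed by -0.55, Irf9 by -0.44 and Stat2 by -0.40. Not all members shared the direction, since Cxcl10, an interferon-induced chemokine, was 9.26 in WT and 9.75 in KO, and Oasl1 was 8.41 and 8.43. The interferon receptor genes lay the other way, with Ifnar1 at 11.06 and 11.63 and Ifnar2 at 11.40 and 11.58.

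In progenitors the medians of the interferon list were -0.05, -0.04 and -0.12 from Pre MegE to CFU-E. Rtp4 differed there by 0.09, -0.35 and -0.87 at the 3 stages, and Ifi44l by -0.21, 0.00 and -0.52. Ifit3 (-0.04 to -0.03) and Oas2 (-0.21 to -0.01) differed little at any stage.

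The interferon-stimulated response element, a binding site for factors of the Irf family, was looked for in RefSeq promoters (GRCm38.p6) of 300 bases, from 250 before to 50 after the start. The letters searched were GAAA, any 2 bases and GAAA again, on both strands. Of the 31 interferon list genes, 25 had a promoter in the table and 16 of these held a match, in 17 of 33 promoters (51.5%). Among all measured genes, 320 of 10764 promoters held it (2.97%), and among those of genes at least 1.5-fold lower in KO, 12 of 165 (7.27%). The stretches around the match nearest to the start are shown for 4 lower genes and for Cxcl10, the member that was higher, to let the letters be compared; capitals mark the match or its reverse complement, and each is given 5′ to 3′ on the strand of the gene. Ifit3 is at chr19:34583392-34583431 (+), Irgm1 at chr11:48871421-48871459 (-), Oas1a at chr5:120907526-120907554 (-), Stat2 at chr10:128270261-128270300 (+) and Cxcl10 at chr5:92349078-92349117 (-).
Ifit3: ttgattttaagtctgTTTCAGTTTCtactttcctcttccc
Irgm1: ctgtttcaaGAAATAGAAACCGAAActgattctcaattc
Oas1a: ccttctcggGAAATGGAAACTGAAAatct
Stat2: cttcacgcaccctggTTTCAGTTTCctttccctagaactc
Cxcl10: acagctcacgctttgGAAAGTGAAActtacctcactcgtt

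The element did not sort the list by size of difference. The DC differences of the genes whose stretches are shown were -1.35 for Ifit3, -0.56 for Irgm1, -0.46 for Oas1a, -0.40 for Stat2 and 0.48 for Cxcl10. The 16 genes with a match had a median difference of -0.25 and the 9 without one a median of -0.56. Without an entry in the table were Rtp4, Oas2, Ifi27l2a, Usp18, Zbp1 and Parp14. In Irgm1 and Oas1a a pair of overlapping matches runs together in the capitals. The cyclic AMP response element core TGACGT was in 13.8% of promoters of genes at least 1.5-fold higher in KO, 6.67% of those at least 1.5-fold lower and 11.7% of all measured. The AP-1 element TGACTCA was in 6.9%, 4.24% and 3.55% of the same sets. A TGACGT and a TGACTCA match share their first 4 letters but differ at the next, so they cannot start at the same base.

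Genes of the respiratory chain, and most of those of the proteasome, were slightly lower in KO. All 27 measured respiratory chain genes lay below 0, against 61.2% of all genes, with a median of -0.19. Ndufa4 (9.67 to 9.17) and Ndufb8 (9.83 to 9.45) differed most, and 0 of the 27 reached 1.5-fold. Of 22 proteasome genes, 18 lay below 0, with a median of -0.15 and Psma2 (-0.37) lowest. Within the progenitors, the respiratory chain median was 0.11, 0.04 and -0.10 from Pre MegE to CFU-E.

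Heat shock chaperones lay on the higher side. Of 18 measured, 17 were higher in KO, with a median of 0.32, and 4 at least 1.5-fold, against 0.758% of all genes. Hspb1, a small heat shock protein, was 8.58 in WT and 9.59 in KO, and its 2 probe sets gave 1.01 and 1.03. Bag3, a partner of Hsp70, was 10.63 and 11.60. Hspd1, the mitochondrial chaperonin, was 11.52 and 12.16 (difference 0.64), and Dnaja1, an Hsp40 protein, 12.20 and 12.80 (0.60). Cryab was the member below 0 (-0.18). The list medians in progenitors were -0.02, -0.04 and -0.06.

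Genes of the metal and oxidant response and of the low oxygen response were partly higher too. Both lists were added after values were seen. Of 21 measured metal and oxidant genes, 14 were higher, and 5 at least 1.5-fold. Among all measured genes, 38.8% lay above 0 and 0.758% were at least 1.5-fold higher. The 5 were Slc30a1, a zinc exporter (8.54 to 9.37), the metallothioneins Mt1 (10.32 to 11.14) and Mt2 (10.45 to 11.10), the regulator Nfe2l2 (11.01 to 11.77) and Srxn1 (7.85 to 8.62). Other targets of that regulator lay below 0, with Gclm at -0.41, Hmox1 at -0.31 and Gsr at -0.29. Of 19 measured low oxygen genes, 10 were higher and 9 lower (median 0.11). Vegfa led them, followed by P4ha1 (9.46 to 10.27), Ddit4 (9.40 to 10.09) and Ndrg1 (9.77 to 10.43), whereas Bnip3 (-0.12), Pdk1 (-0.11) and Car9 (-0.16) were below 0. Together the heat shock, metal, oxidant and low oxygen lists held 13 of the 80 genes at least 1.5-fold higher and 0 of the 187 lower ones. They held 58 of the 10554 measured genes, and the lists added after values were seen add no independent support to this count.

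Immediate early genes, which cell handling can induce, were nearly level. Of 35 measured, 19 were above 0 and 16 below, with a median of 0.03, and Fosb (13.51 and 13.63), Atf3 (13.81 and 13.88) and Jun (13.34 and 13.33) were at like levels in both genotypes. Egr3 was the member past 1.5-fold (11.50 to 10.90).

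Cytokine and growth factor receptor genes were higher for 24 of 35 measured, beside 38.8% of all measured genes, with a median of 0.15. Past Csf3r and Lifr no member reached 1.5-fold, and the next were the interleukin 1 decoy receptor Il1r2 (11.98 to 12.56), Ifnar1 and Il4ra (10.61 to 11.13). Flt3, the receptor through which DC precursors grow, was 11.71 and 11.93, and Csf1r 11.75 and 12.10. Among cytokines and chemokines 19 of 27 were higher (median 0.15), beside the same 38.8%. Il1rn, the interleukin 1 receptor antagonist, was 9.02 and 9.78, and Ccl5 11.27 and 11.81, while Tnf (11.27 and 11.25) and Ccl3 (13.49 and 13.45) were level. Of the JAK, STAT and SOCS genes 8 of 23 lay above 0 (median -0.06), and the largest differences were those of Stat2 and of Stat4 (10.52 to 10.89).

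Maturation and costimulation genes were higher for 18 of 24 measured, beside 38.8% of all measured genes, with a median of 0.10. After Il12b and Ccl5 came the costimulators Cd80 (11.01 to 11.44) and Cd86 (11.76 to 12.16). Cd83 (13.59 and 13.71), Ccr7, the receptor that guides DC to lymph nodes (12.90 and 13.02), and Cd40 (10.33 and 10.20) differed little. Cd24a lay the other way (9.53 to 8.72, difference -0.81). For 1.5-fold, 1 member was higher and 1 lower.

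Genes that present antigen on MHC class II were level, and those of MHC class I slightly lower. The 17 class II genes had a median of 0.00 and a range of -0.25 to 0.33, and Cd74, the invariant chain, was 13.88 on both arrays. Of 20 class I genes, 16 lay below 0, with a median of -0.16. The interferon-inducible members Psme2 (11.54 to 11.13), Tap1 (11.31 to 10.93) and Psmb8 (10.71 to 10.38) were among the lowest, while B2m differed by -0.03.

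Genes of DC identity other than Zbtb46 differed little. Of 29 measured classical DC core genes, 14 were above 0 and 15 below (median -0.04), and apart from Zbtb46 and Nectin1 their differences lay within 1.5-fold. Flt3, Itgax, Dpp4 (12.31 and 12.37), Kmo (11.65 and 11.61) and Asb2 (12.65 and 12.42) were at like levels. The 15 genes of the CD4+ branch ranged from -0.20 (Cd4) to 0.21 (Clec12a), with a median of 0.03. In this list Irf4 was 12.15 and 12.02, Relb 10.73 and 10.76, Notch2 11.56 and 11.65, and Rbpj, the DNA-binding partner of Notch, 10.72 and 10.89.

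Transcription factors of DC showed a few members past 1.5-fold. Of 47 measured, 26 were above 0 and 21 below (median 0.04). Prdm1, which encodes the repressor Blimp-1, was 8.04 in WT and 8.87 in KO, Nfil3, a bZIP factor needed for CD8+ DC, 10.45 and 11.20, and Cebpb 9.01 and 9.67. Id2, a factor that favours classical over plasmacytoid DC, was 12.39 and 12.89 (difference 0.50). Irf8 (9.82 and 10.02), Batf3 (9.77 and 9.55) and Spi1 (12.56 and 12.49) were nearly level. Of 27 genes of the Notch and lymphotoxin pathway, 1 passed 1.5-fold, the Notch target Hes1 (9.74 to 10.51), while the target Dtx1 differed by -0.10.

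**Figure D3:**
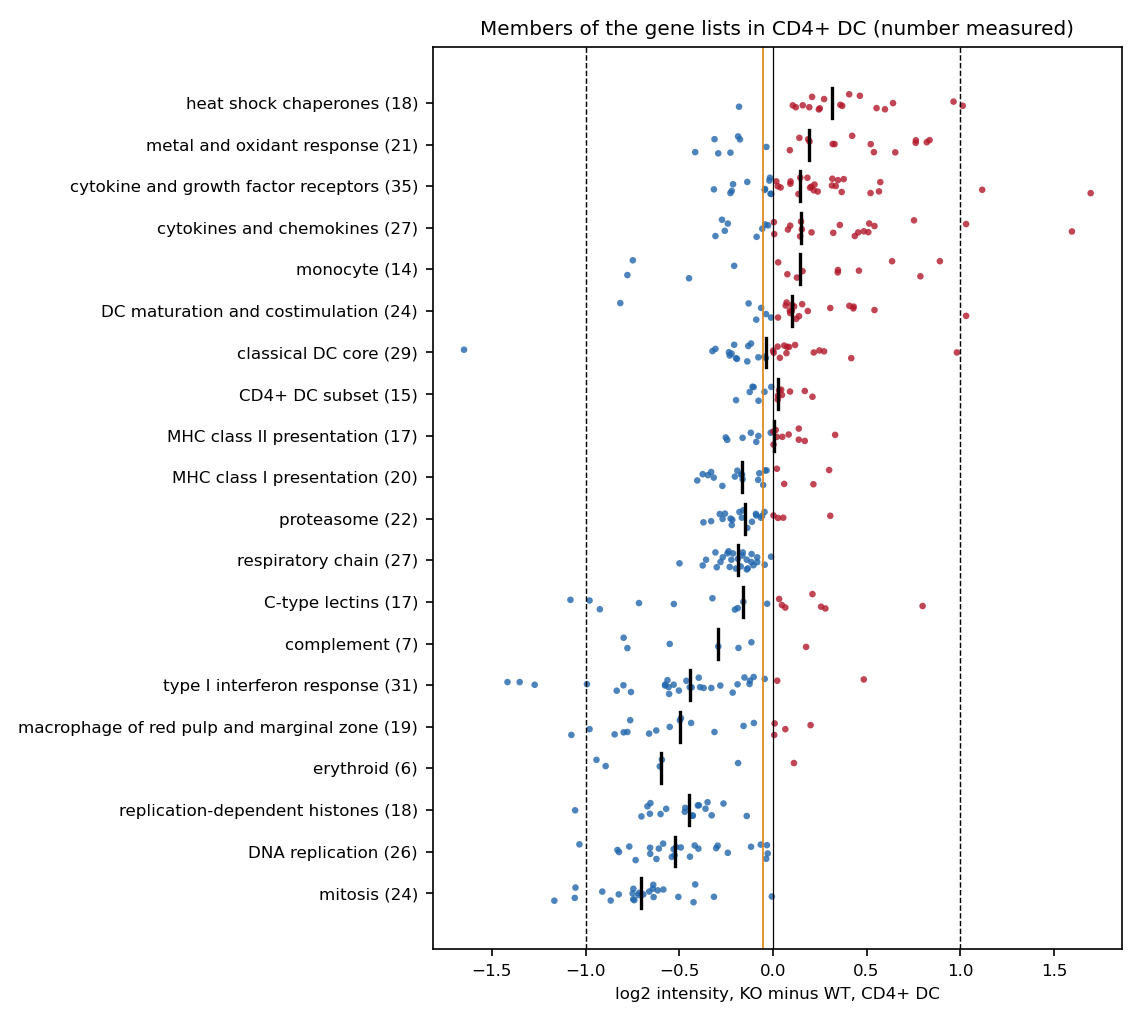
Differences in log2 intensity, KO minus WT, of the measured members of 20 gene lists in CD4+ DC. Each point is 1 gene, black bars are list medians, the orange line is the median of all measured genes (-0.05) and dashed lines mark 2-fold; medians run from -0.70 for mitosis to 0.32 for heat shock chaperones.

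Surface receptors differed in both directions within each family. Among 17 measured C-type lectins, Mgl2, Mrc1, the mannose receptor (9.71 to 8.74), Clec4b1 (7.71 to 6.78) and Clec4n, which encodes Dectin-2 (11.06 to 10.35), were lower, and Clec2i was higher (9.42 to 10.22). Among 5 Fc receptor genes, Fcgr1 was 7.73 in WT and 6.95 in KO, and Fcgr4 9.76 and 10.54. Among 22 Toll-like receptor genes and adaptors, Cd14 was higher and Ly96, the partner of Tlr4, lower (8.05 to 7.21), and the list median was 0.04. The lists thus hold members on both sides, and their medians (-0.16, -0.04 and 0.04) changed sign with the filter on low values. Mgl2, Clec4b1, Fcgr1 and Ly96 were below the array median in KO, so their folds depend on unmeasured background.

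Inhibitory and paired receptors, migration receptors and adhesion genes had medians near 0. Of 27 inhibitory and paired receptors, Cd200r1 (8.54 to 7.77) and Pilrb1 (10.26 to 9.60) were past 1.5-fold lower and Cd300c (8.57 to 9.16) past it higher. Of 16 migration receptors, Ccr3 was lower (8.93 to 8.15) and Cx3cr1, the fractalkine receptor, higher (9.01 to 9.63). Of 29 integrin and adhesion genes, Vcam1 was lower (10.67 to 10.05) and Itgb3 higher (9.19 to 9.80).

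Housekeeping lists were close to the background. The medians were -0.01 for 28 lysosomal genes, -0.06 for 21 glycolysis genes, -0.06 for 29 genes of cholesterol and fatty acid synthesis, -0.01 for 23 genes of ribosome biogenesis and 0.07 for 15 members of the BCL2 family. The glycolysis gene Ldhb was the member of these lists past 1.5-fold (8.06 to 7.28), and it lay below the array median in KO. The death-promoting Bcl2l11, which encodes Bim, was 9.46 and 10.05.

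**Figure D4:**
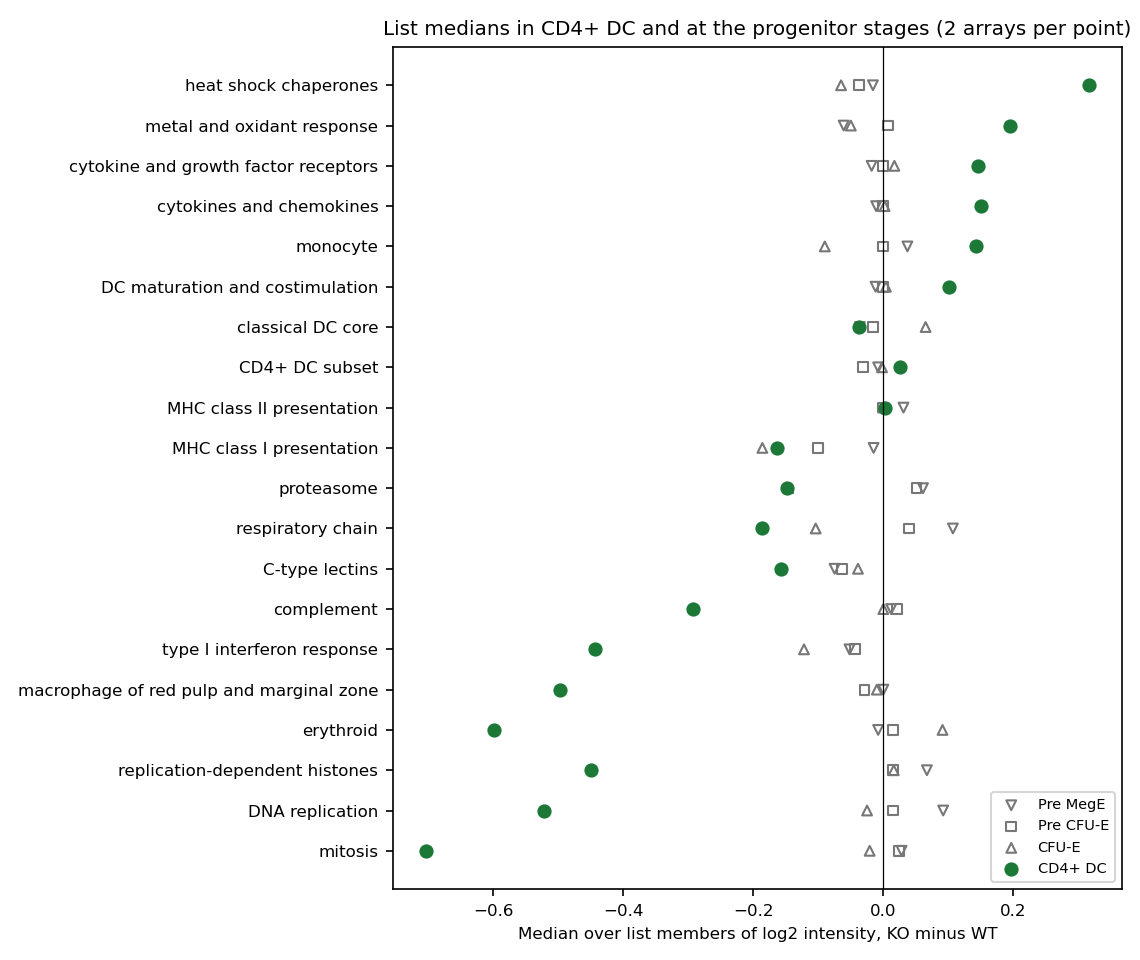
Medians of the same 20 lists, as log2 intensity of KO minus WT, in CD4+ DC (filled circles) and at the 3 progenitor stages (open symbols), with 2 arrays behind each point. For mitosis the DC median is -0.70 and the progenitor medians lie between -0.02 and 0.03.

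Marker genes of other cells were read because several differ in the same direction as the lists above. Of 19 measured genes of red pulp and marginal zone macrophages, 15 were lower in KO and 4 higher, beside 61.2% of all measured genes below 0. The list median was -0.50, and 8 members were at least 1.5-fold lower, against 1.77% of all measured genes. The complement genes C1qa (9.95 to 9.40), C1qb (difference -0.78, to 10.22 in KO) and C1qc (11.01 to 10.21) were among the 15 lower members. Axl, a receptor for dying cells (10.26 to 9.42), and Slc40a1, the iron exporter ferroportin (10.75 to 9.99), were as well. Cd163, the haemoglobin scavenger receptor, was 8.25 and 7.58. Cd163, Cd5l and Siglec1 were below the median in KO and so were measured through the WT array alone. Not all macrophage genes were lower: Adgre1, which encodes F4/80, was 12.33 and 12.39, Spic, the factor that specifies red pulp macrophages, 9.89 and 10.09, and Timd4 8.15 and 8.16. The summed intensity over all 20 genes of the list with a probe set was 32600 in WT and 27100 in KO DC, and 5170 to 5810 on the progenitor arrays. Of 7 measured complement genes, 6 were lower (median -0.29), of which C1qa, C1qb and C1qc are shared with the macrophage list.

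Erythroid genes were lower in KO DC too. Of 16 erythroid genes with a probe set, 6 were measured, 5 of them lower, with a median of -0.60. Car1 and Sptb were measured through the WT array alone, and the median over all 16 was -0.36. Slc4a1, the red cell anion exchanger, was 9.41 in WT and 8.47 in KO, and Alas2, the erythroid enzyme that starts heme synthesis, 8.81 and 7.91. Car1 (8.02 to 7.42) and Car2 (9.91 to 9.32), the carbonic anhydrases of red cells, were the others at least 1.5-fold lower. On the progenitor arrays Slc4a1 spanned 8.14 to 9.23 and Alas2 7.62 to 8.22, so the WT DC array was above all of them for both genes. The summed intensity of the 16 was 4110 in WT DC and 2960 in KO DC, against 36400 to 77800 in progenitors. The globin genes were not analysed here.

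B cell and plasma cell genes did not share a direction. Of 10 measured B cell genes, Ms4a1 was higher and Cd22 lower, Blk was 10.13 in WT and 9.61 in KO, and Bank1 (10.02 and 10.03) was level. Among the defining markers, Cd79a (7.52 and 6.82) and Pax5 (7.21 and 7.27) were below the median on both arrays, and Ms4a1 (8.57 and 9.55) was above it on both. Cd79b, a further member of the list, was 9.72 and 9.98. The summed intensity of the 19 B cell genes with a probe set was 10600 and 9260. Of 6 plasma cell genes, Jchain was 8.56 and 7.76 and Prdm1 lay the other way, while Sdc1 (7.21 and 7.42) and Tnfrsf17 (6.64 and 6.83) were below the median on both arrays.

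Neutrophil genes were read beside the high Csf3r, and whether such cells were its source was not tested. Of 23 with a probe set, 7 were measured and 16 lay below the median on both arrays. Ly6g (5.71 and 5.84), Camp (7.14 and 7.21), Ngp (6.35 and 6.65) and Retnlg (5.80 and 6.02) were among those below it, and S100a9 was 8.20 in WT and 7.62 in KO. The summed intensity of the 23 was 8500 in WT and 11900 in KO, with Csf3r and Il1r2 (11.98 to 12.56) as the members at least 0.5 higher. On the progenitor arrays the sum was 23400 to 58200.

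Monocyte genes were split. Of 14 measured, 10 were higher and 4 lower (median 0.14): Cd14, Fcgr4 and Ace (9.29 to 9.93) were higher, and Fcgr1 and Ms4a4c (11.31 to 10.56) lower, each at least 1.5-fold. Fcgr1 was below the array median in KO and so was measured through the WT array alone. Lyz2 was 12.68 and 13.03, and Ccr2, the receptor of classical monocytes, 8.40 and 8.20.

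Several defining markers of other cells left less signal. Of the T cell markers Cd3d (6.76 on both arrays) and Cd3g (6.55 and 6.32) were below the median, as were the NK cell markers Ncr1 (6.19 and 6.24), Klrb1c and Gzma. The T cell marker Cd3e (7.66 and 7.67) lay slightly above the median on both arrays. The NK cell marker Prf1 (7.54 and 7.68) lay above it in KO alone. Other members of these lists lay well above the median on both arrays. Among them were Cd5 (10.12 and 10.01) and Il7r (9.03 and 8.72) of the T cell list. In the NK cell list, Klrd1 (10.48 and 10.5) and Tbx21 (10.34 and 10.03) did so. The list medians were -0.04 over 5 measured T cell genes and 0.08 over 4 NK cell genes. The CD8+ DC markers Clec9a (7.19 and 6.99) and Cd8a lay below the median, Xcr1 (7.64 and 7.23) at it in WT, and the 11 measured genes of that branch had a median of -0.21. Those with the lowest differences, Cd36 (7.86 to 7.38), Xcr1 and Tlr3 (7.95 to 7.6), were measured through the WT array alone. The list median thus depends in part on unmeasured background. Plasmacytoid DC genes had a median of -0.08 over 12 genes, with Siglech at 8.23 and 8.52 and Ccr9 at 9.67 and 9.32.

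The markers of granulocytes of other kinds and of platelets were low. Epx (6.26 and 6.33) and Prg2 of eosinophils, Mcpt8 (5.84 and 5.97) and Cpa3 of mast cells and basophils, and Pf4 (5.79 and 5.80) of platelets were all below the median. Ccr3 and Siglecf (8.14 and 8.24) were the 2 measured eosinophil genes, and Hdc (8.46 and 8.51) and Kit (12.07 and 12.22) the 2 of mast cells. The 5 measured megakaryocyte genes lay above 0 (median 0.26), with Itgb3 highest, but Itga2b was measured through the KO array alone, and the median over all 13 with a probe set was 0.09. Of 8 endothelial and stromal genes, 6 lay above 0 (median 0.13), and Lpl was the member past 1.5-fold (8.29 to 7.39). Lpl was measured through the WT array alone, and Col3a1 and Ccl19 through the KO array alone. The part of macrophages, erythroid cells or cells attached to DC in the differences between the 2 DC arrays was not tested.

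**Figure D5:**
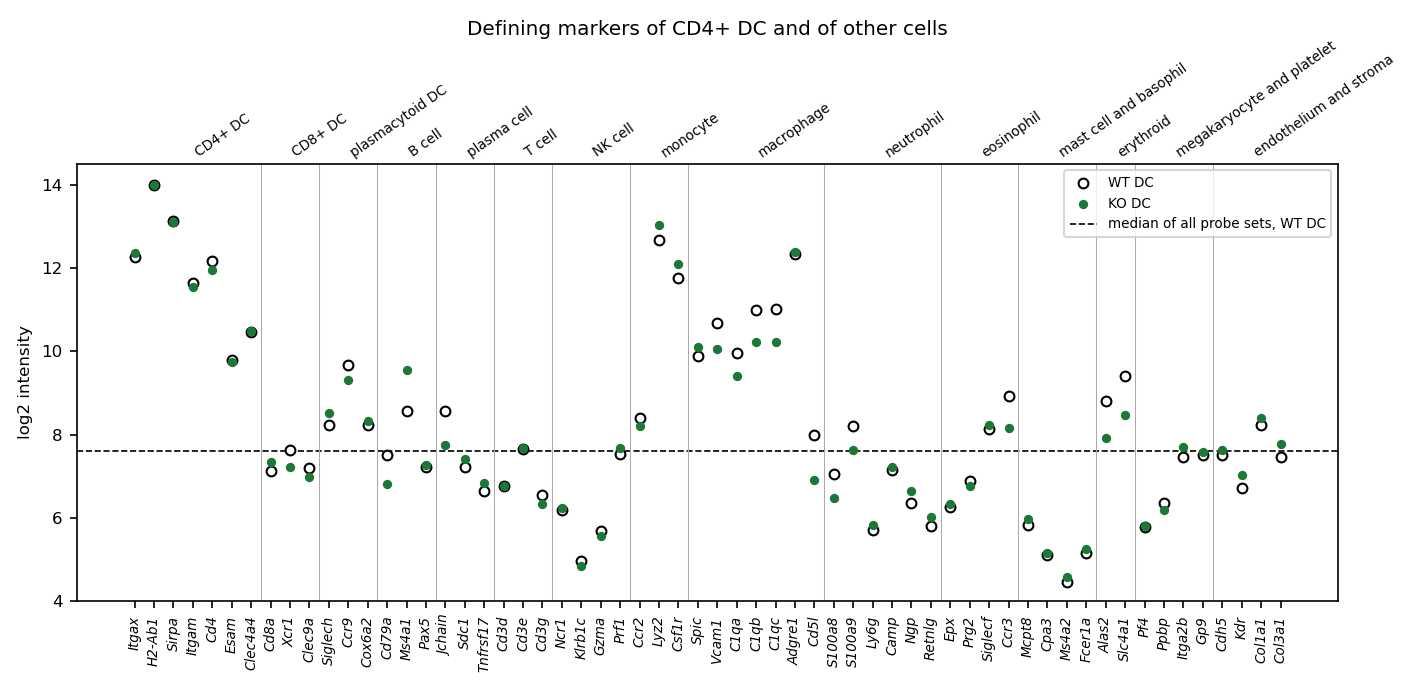
Log2 intensity of the defining markers of CD4+ DC and of other cells in WT (open circles) and KO DC (filled circles), 1 array each, grouped by cell type. The dashed line is the median of all probe sets on the WT DC array (7.61); C1qa, C1qb and C1qc lie above it and lower in KO, and Ly6g, Camp, Ngp and Retnlg lie below it.

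Genes near the targeted locus were close to the background. Of genes that start within 5 Mb of Zbtb46 on chromosome 2 in the reference annotation, 41 were measured, 0 were past 1.5-fold in either direction and the median was -0.03. The lowest was Ppdpf (-0.48) and the highest Sox18 (0.48).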

How the data were processed

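Per the labels' protocols, RNA of sorted cells received a biotin label, with an Ambion/Affymetrix WT Expression Kit. The authors deposited 1 intensity per probe set and array on a linear scale. RMA made these values, per the submitters' processing notes, which name no version. The log2 of each deposited intensity was taken with no further scaling. Of 29674 probe sets, 21780 had 1 gene symbol, 1618 several and 6276 none listed. They gave 19933 genes, and where a gene had several probe sets (996 genes), the highest by mean log2 over the 11 arrays stood for it. Genes at or above the array median on at least 1 DC array were kept, and calls mean 2-fold or 1.5-fold.

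With 1 array per group no test was made; the number of arrays limits the precision. Named genes were Zbtb46, the 15 largest differences each way (predicted, olfactory, microRNA and small nucleolar genes left out), and from each of 47 gene lists the members past 2-fold or, where fewer than 4 were, up to 4 with the largest differences, with cell markers. Other names were picked after their values were seen, as were 3 further lists. Members and lists were chosen with earlier results of these data known. Scripts used Python 3.11.15, numpy 2.4.6 and pandas 2.3.3, and were tested on simulated data. Alternatives covered scaling, offset, probe set choice, filter and fold.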

Additional observations from a re-analysis of the deposited data

Results flagged for a closer look

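Of 37 genes named for their DC difference, 17 were measured at every progenitor stage, and 5 of these were higher in KO DC and lower in KO at each of the 3 progenitor stages. Among all 8796 genes measured in DC and at every stage, 1058 (12%) had opposite directions in this sense, 389 of them higher in DC, and differences near 0 can set the sign. Csf3r was 1.70 higher in DC on the log2 scale, and its progenitor differences ran from -0.36 to -0.02. Vegfa was 1.6 higher, against -0.16 to -0.02. Vps37b was 1.14 higher, against -0.07 to -0.01. Klf10 was 1.01 higher, against -0.17 to -0.03, and Bag3 0.96 higher, against -0.32 to -0.03. The difference between DC and progenitors was not tested, since 1 DC array stands for each genotype.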

How the results depend on the processing

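No paired analysis was possible because the labels give no replicate numbers and each group has 1 array; for the same reason no array could be left out. The counts of 12 genes at least 2-fold higher and 21 lower became 23 and 48 under quantile normalization of all 11 arrays and 80 and 187 at 1.5-fold. The lower count was 10 with 50 added before log2 and 13 with the filter on both arrays. Other settings gave 9 to 15 higher and 17 to 24 lower, among them a filter added after values were seen (1 log2 unit above the median), with 12 and 17. Zbtb46 ranged from -1.95 to -1.48. Beside Zbtb46, the alternatives were followed for 36 genes, those past 2-fold and the rest of the 15 largest differences each way. All 36 kept their sign in every alternative, but 16 of the 32 past 2-fold dropped under it in at least 1. List members named in the text were followed through their list's median alone. Of 49 list medians, 32 kept their sign in all alternatives; of the 11 with an absolute median of 0.2 or more, 10 did, the exception being the 2 eosinophil genes. Lists whose median changed sign in some setting included the C-type lectins, the receptors of the Fc and Toll-like kind, MHC class II, the CD4+ branch, glycolysis, and T and NK cells. Mitosis ranged from -0.87 to -0.58, interferon from -0.47 to -0.37 and heat shock from 0.29 to 0.36.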

Other observations

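Of the genes at least 1.5-fold different in DC, 117 of the 187 lower and 50 of the 80 higher were in none of the lists. Among all 10554 measured genes, 9752 were in none. The genes named here were picked after their values were seen, so they add no independent support to a list. Some lower ones with a known part in cell division were as follows: Stmn1, which destabilises microtubules, was 0.97 lower on the log2 scale (difference -0.97), Mad2l1, of the spindle checkpoint, differed by -0.95, Esco2 by -0.90, Prc1 by -0.86, Melk by -0.84, and the cell cycle factors E2f7 by -0.82 and Foxm1 by -0.62. Known interferon-inducible genes among them were Slfn5 at -0.86, Samd9l at -0.74, Ddx60 at -0.69 and Ifi27 at -0.68. Esco2, Prc1, Melk and E2f7 were below the array median in KO, so their folds depend on unmeasured background. The lower and higher genes were not tallied by function. Igf1, a growth factor that macrophages make, was 9.30 in WT and 8.26 in KO, and S100a10 was 10.68 and 9.65.

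On the higher side outside the lists, Hspa1l (0.83) and Dnaja4 (0.64) are chaperones, while Dnajc18, of the same family as Dnaja4, lay the other way (-0.61). Phlda1 differed by 0.85, Pvr, a ligand of the nectin family, by 0.84, Epcam, an adhesion molecule, by 0.84, Pik3r1, a regulatory subunit of phosphoinositide 3-kinase, by 0.79, and the circadian genes Ciart and Usp2 by 0.64 each.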
